A study of Mus musculus with 24 samples.

Results

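The genes described here are those whose exons spread over 500 kb to 3 Mb of 1 chromosome, measured from the smallest exon start to the largest exon end in the deposited count table. A mean of at least 1 CPM (counts relative to all counts of a library) over all 24 libraries was also required. Of 24421 genes in the table, 296 had such a span, 110 of these fell under the expression limit and 12 were left out by the rule. Those 12 were Erbb4, Plcb1, 8 genes whose symbols start with Gri, Grm or Gabr, and 2 genes in a stretch of chromosome 8. This left 174 very long genes, and all 174 passed the filter on low counts and were tested. RNA came from the cortex of 24 mice aged 7.5 months, with 1 library per mouse and 6 mice per genotype. Every mouse carried 5xFAD, a pair of human transgenes for mutant amyloid precursor protein and presenilin 1 under the neuronal Thy1 promoter, which lead to amyloid plaques. The genotypes were wild type at both other loci (WT), Trem2 knockout (Trem2KO), Plcg2 knockout (Plcg2KO) and Plcg2 heterozygous (Plcg2HET). WT, Trem2KO and Plcg2HET each had 3 males and 3 females, and Plcg2KO had 4 males and 2 females. The labels name no cell type or promoter for the knockouts, and mice without 5xFAD were not analysed here.

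A gene of this length takes a polymerase many hours to copy, and most of what is copied is intron that splicing removes. Very long genes are common among the adhesion molecules, channels and synaptic scaffolds of neurons, and their output in neurons is known to depend on topoisomerases and on factors that keep RNA polymerase II elongating. The TREM2 receptor lets microglia, the brain's own immune cells, sense lipids around plaques, and the phospholipase made from Plcg2 passes its signal on.

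The 174 genes had a median span of 715 kb, against 21.6 kb over all 16316 genes tested. Spans ran from 502 kb to 2271 kb, and 45 genes exceeded 1 Mb. Exons were a small part of this: the median summed exon length was 5.93 kb, or 0.738% of the span, and the median largest gap between exons was 232 kb. The longest were Ptprd (2271 kb, chromosome 4, positions 75941237 to 78211895 of mm10), Dmd (2256 kb, chromosome X, 82948870 to 85205050) and Cntnap2 (2241 kb, chromosome 6, 45060061 to 47301371). Ptprd encodes a receptor phosphatase that organises synapses, Dmd encodes dystrophin and Cntnap2 encodes a contactin-associated adhesion protein. The span of another gene, introns included, overlapped that of 90 of the 174, so reads may be shared or lost where exons overlap too. For 2 genes, Rnaset2b and Gm1604b, the long span comes from separate copies filed under 1 symbol, and neither was called in any comparison. Edil3 (502 kb) and Car10 (502 kb) lay just inside the span limit, and Ank3 (494 kb) and Dnm3 (491 kb) just outside. At the expression limit, 1700112E06Rik (1.14 CPM) and Ctnna3 (1.25 CPM) were inside, and Gm20754 (0.992 CPM) and L3mbtl4 (0.634 CPM) were outside.

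Roles known from neurons were common in the set, but not all members are of neuronal kind, and bulk tissue does not show which cells a transcript came from. Grouped by what their proteins are known to do, 44 encode adhesion molecules and synapse organisers, 22 scaffold, cytoskeletal and release proteins, 19 channels, transporters and their partners, and 19 signalling enzymes, ligands and receptors. A further 18 serve metabolism, trafficking and general upkeep, 17 are transcription or RNA-binding factors, 11 act in glycan, proteoglycan or matrix biology, 7 in axon guidance and migration, and 17 were on no list. Dock2, a Rac activator of leukocytes, and Mecom, a transcription factor of blood and vessel cells, are members that neurons are not known for. Among lists of cell type markers, only Adarb2 (inhibitory neurons) and Lhfpl3 (oligodendrocyte precursors) are also very long genes. Levels per length ran from 0.0672 to 372 CPM per kb of exon, with a median of 6.45. Syt1, the calcium sensor of synaptic vesicle release, was the highest at 372 CPM per kb, followed by Ntm, an adhesion molecule of the IgLON family, at 152 CPM per kb. In CPM, 41 genes averaged over 100.

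Promoters of the 2 genes with the largest increases in Plcg2KO are shown because these genes lead that comparison and because their base composition differs from that of their transcripts. Each is the 250 bases upstream of the start given by RefSeq on GRCm38.p6, plus strand, 5′ to 3′, with every CpG (the letters CG) in capitals.
Aff2, chrX:69360081-69360330: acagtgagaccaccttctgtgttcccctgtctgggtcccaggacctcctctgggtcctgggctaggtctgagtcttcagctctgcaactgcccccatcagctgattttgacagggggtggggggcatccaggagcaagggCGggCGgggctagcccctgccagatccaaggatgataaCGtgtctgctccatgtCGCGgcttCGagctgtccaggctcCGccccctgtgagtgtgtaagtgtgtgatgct
Trpm3, chr19:22138796-22139045: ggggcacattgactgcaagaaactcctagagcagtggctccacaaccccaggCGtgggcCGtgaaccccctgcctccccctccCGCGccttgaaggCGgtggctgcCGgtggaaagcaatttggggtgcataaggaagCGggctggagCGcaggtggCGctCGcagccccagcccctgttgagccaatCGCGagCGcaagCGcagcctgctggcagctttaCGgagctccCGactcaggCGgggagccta
The Aff2 stretch held 7 CpGs at a GC content of 61.2%, and the Trpm3 stretch 17 at 66.4%, while their transcripts had GC contents of 49.9% and 45.6%. RefSeq promoter windows of 300 bases (250 before and 50 after the start) were matched for 145 very long genes. Their median GC content was 60.3%, the same as over the 12731 promoters of tested genes, with a median of 15 CpGs against 19. At least 1 CpG was present in 97.9% of them and in 99.3% of the windows of all tested genes. The median GC content of the transcripts was 45.8% in the very long genes and 49.8% over all tested genes.

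Total counts per library were 36.3 to 83.0 M, and TMM-scaled levels summed over the very long genes were 10899 to 18432 CPM. Plcg2 lay between 0.739 and 1.20 CPM in Plcg2KO and between 7.73 and 15.2 CPM in WT, and Trem2 between 4.59 and 7.45 CPM in Trem2KO against 46.5 to 119 CPM in WT. Plcg2HET overlapped WT in Plcg2 (5.89 to 19.8 CPM). Each library's deviations followed GC content across genes to a different degree, with a Spearman correlation of -0.567 to -0.284 in Plcg2KO, -0.0771 to 0.521 in Trem2KO, -0.513 to 0.257 in WT and -0.450 to 0.555 in Plcg2HET. The counts and medians of each comparison are therefore given without and with offsets that remove each library's trend with GC content. Cell type markers, groups that do not overlap and values of single genes are without offsets unless stated. GC content was known for 173 of the 174 genes. Summed levels of 15 microglial markers were 1162 to 1949 CPM in WT, 784 to 1104 CPM in Trem2KO, 633 to 1021 CPM in Plcg2KO and 1206 to 2216 CPM in Plcg2HET. In bulk cortex, fewer cells of a type and less RNA per cell cannot be told apart.

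The first question is whether loss of Plcg2 in 5xFAD cortex went with a change in very long genes. Very long genes were mostly higher in Plcg2KO than in WT: 40 of 174 passed an adjusted p of 0.05 upward (23.0%) and 3 downward (1.72%). Over all tested genes, 5.44% were called higher and 7.63% lower. The median log2 fold change was 0.22 over the 174 genes and -0.00 over all genes, and 150 of the 174 were above 0. The pooled SD between libraries of 1 genotype in the median of these genes was 0.164 on the log2 scale. In 31 of the 174, all 6 Plcg2KO libraries lay above all 6 WT libraries, which held for 3.86% of tested genes. In 2 they lay below all WT libraries, which held for 4.75%.

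Each library's median deviation of the 174 genes from their own means shows how the libraries lay. In Plcg2KO it was 0.162 at the lowest, 0.187 at the median and 0.305 at the highest. WT females lay at -0.232 to -0.159 and WT males at 0.0298 to 0.135. All 6 Plcg2KO libraries were therefore above all 6 WT libraries, by little in the case of males. With GC offsets, Plcg2KO ran from 0.0749 to 0.187, still above WT males (0.0365 to 0.0635) and WT females (-0.270 to -0.130). Trem2KO ran from -0.132 to 0.155 without the offsets, overlapping WT and just below every Plcg2KO library. With them it ran from -0.0126 to 0.151 and overlapped both groups.

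**Figure D1:**
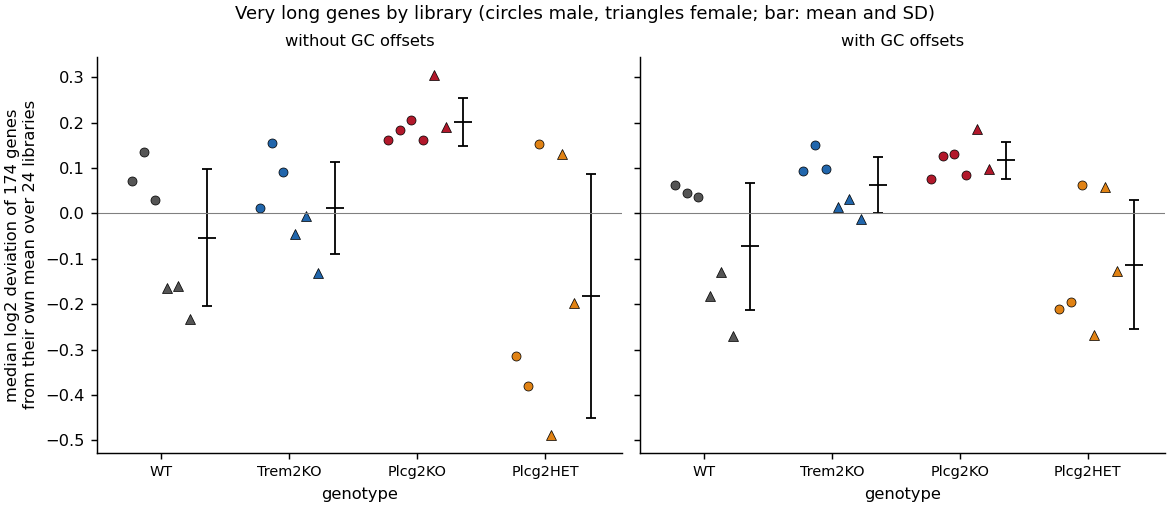
Median log2 deviation of the 174 very long genes from their own mean over 24 libraries (y axis), for each library by genotype (x axis), without GC offsets on the left and with them on the right; circles are males, triangles females, and the bar gives mean and SD over 6 libraries. The 6 Plcg2KO libraries sit between 0.162 and 0.305 on the left, above every WT library, and Plcg2HET M3 and F2 sit apart from the other Plcg2HET libraries.

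Aff2, a nuclear protein of the AF4/FMR2 family, had the largest rise. Its level was 2.92, 4.13 and 5.09 CPM at the lowest, median and highest WT library, and 7.74, 8.97 and 12.9 CPM in Plcg2KO. For each gene that follows, sets of 3 levels are in this order. The groups did not overlap, and the log2 fold change was 1.21 ± 0.19 (SE, adjusted p = 8.8e-05). It was 1.20 with GC offsets, and the call held with any 1 library left out and in each sex alone.

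Trpm3, a cation channel of the TRP family, was the next. WT libraries lay at 13.7, 18.1 and 23.3 CPM and Plcg2KO libraries at 33.9, 37.3 and 38.7 CPM, again with no overlap. The log2 fold change was 1.0 ± 0.15 (SE, adjusted p = 4.1e-05), and 0.94 with GC offsets. In males alone the value was 0.74 with an adjusted p of 0.062, and in females alone 1.37 with an adjusted p of 0.00093.

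Among other adhesion and synapse genes, 7 of 44 were called higher and 0 lower. Il1rapl1, a synaptic adhesion protein related to the interleukin 1 receptor, measured 2.83, 3.45 and 3.94 CPM in WT and 4.70, 5.80 and 6.65 CPM in Plcg2KO, which gave 0.73 ± 0.15 on the log2 scale (adjusted p = 0.0016). Tenm1, a teneurin that joins cells across synapses, measured 9.04, 12.1 and 14.7 CPM in WT and 17.4, 19.7 and 22.2 CPM in Plcg2KO (log2 fold change 0.70 ± 0.13, adjusted p = 0.0006). Neither gene's groups overlapped. Cntnap2 also rose (0.35 ± 0.11, adjusted p = 0.031), but that call was lost without any 1 of WT F1, F2 or F3 or of Plcg2KO F1 or F2.

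Glycan and matrix genes gave 5 of 11 called higher and 0 lower. Thsd4, a secreted ADAMTS-like matrix protein, measured 3.48, 4.42 and 5.03 CPM in WT and 5.97, 7.17 and 9.27 CPM in Plcg2KO, without overlap (0.75 ± 0.13, adjusted p = 0.00016). Galnt13, an enzyme that starts mucin-type O-glycosylation, measured 16.9, 19.9 and 30.7 CPM in WT and 32.1, 33.8 and 36.4 CPM in Plcg2KO (0.66 ± 0.12, adjusted p = 0.00034). Here WT M2 stood near the Plcg2KO range, and the groups still did not overlap. Gpc5, a glypican, rose by 0.58 ± 0.13 (adjusted p = 0.0029).

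Axon guidance genes gave 3 of 7 called higher, among them a ligand and a receptor of 1 pathway. Slit3, a secreted guidance ligand, measured 16.8, 22.8 and 31.2 CPM in WT and 30.4, 38.2 and 42.3 CPM in Plcg2KO, with a small overlap (0.65 ± 0.12, adjusted p = 0.0004). Robo2, a receptor for Slit ligands, measured 68.2, 81.8 and 108 CPM in WT and 113, 123 and 153 CPM in Plcg2KO, without overlap (0.58 ± 0.15, adjusted p = 0.011). Sema6d, a semaphorin, had a log2 fold change of 0.18 ± 0.12 (adjusted p = 0.32).

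Scaffold and release genes gave 7 of 22 higher and channel genes 6 of 19, with 0 lower in either group. Anks1b, a postsynaptic scaffold, measured 171, 213 and 268 CPM in WT and 271, 282 and 302 CPM in Plcg2KO, just clear of each other (0.39 ± 0.09, adjusted p = 0.0040). Kcnip4, a subunit of A-type potassium channels, rose by 0.52 ± 0.14 (adjusted p = 0.014), but the value was 0.36 with an adjusted p of 0.081 without Plcg2KO F1. The abundant Syt1 measured 1524 to 2011 CPM in WT and 1933 to 2425 CPM in Plcg2KO, which gave 0.21 ± 0.13 (adjusted p = 0.32). Syne1, a nuclear envelope linker, gave 0.33 ± 0.13 (adjusted p = 0.078).

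Signalling genes gave 5 of 19 higher and 1 lower, and upkeep genes 3 of 18 higher. Nbea, a protein of membrane traffic to synapses, measured 137, 174 and 201 CPM in WT and 258, 264 and 281 CPM in Plcg2KO, without overlap (0.62 ± 0.12, adjusted p = 0.0009). Ptprn2, a protein of dense-core vesicles, was called at 0.22 ± 0.07 (adjusted p = 0.049), but 17 of the 24 fits that left out 1 library lost that call, as did the GC offsets (adjusted p = 0.064).

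The 3 genes that fell were not of the synaptic kind. Zbtb20, a zinc finger transcription factor, measured 6.03, 7.63 and 10.6 CPM in WT and 4.14, 4.28 and 5.89 CPM in Plcg2KO, without overlap (log2 fold change -0.76 ± 0.13, adjusted p = 0.00017). Mecom measured 1.42, 1.70 and 2.36 CPM in WT and 0.652, 0.937 and 1.10 CPM in Plcg2KO, without overlap but near the expression limit (-1.03 ± 0.23, adjusted p = 0.0029). Dock2 measured 9.35, 15.3 and 18.5 CPM in WT and 6.26, 8.33 and 11.5 CPM in Plcg2KO, with overlap (-0.60 ± 0.13, adjusted p = 0.0030). All 3 kept their calls with GC offsets and with any 1 library left out.

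Markers of other cells moved in the same comparison. Of 15 microglial markers 14 were lower, and of 12 endothelial markers 8 were lower, with summed endothelial levels of 116 to 151 CPM in Plcg2KO against 154 to 260 CPM in WT. Of 18 general neuronal markers 0 were higher and 2 lower, with a median log2 fold change of -0.01, and 4 of 16 inhibitory neuron markers were higher. Summed general neuronal markers were 15145 to 19256 CPM in WT and 16778 to 19549 CPM in Plcg2KO. Inhibitory neuron markers summed to 1473 to 1664 CPM in WT and 1665 to 1898 CPM in Plcg2KO, just without overlap. Excitatory neuron markers summed to 6482 to 8374 CPM in WT and 6970 to 8698 CPM in Plcg2KO, with overlap. Of 14 pericyte and fibroblast markers 4 were higher and 0 lower, of 14 astrocyte markers 3 and 1, of 14 oligodendrocyte markers 1 and 2, of 10 oligodendrocyte precursor markers 2 and 0, and of 14 excitatory neuron markers 1 and 0. The part of cell composition in the levels of the very long genes was not tested.

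**Figure D2:**
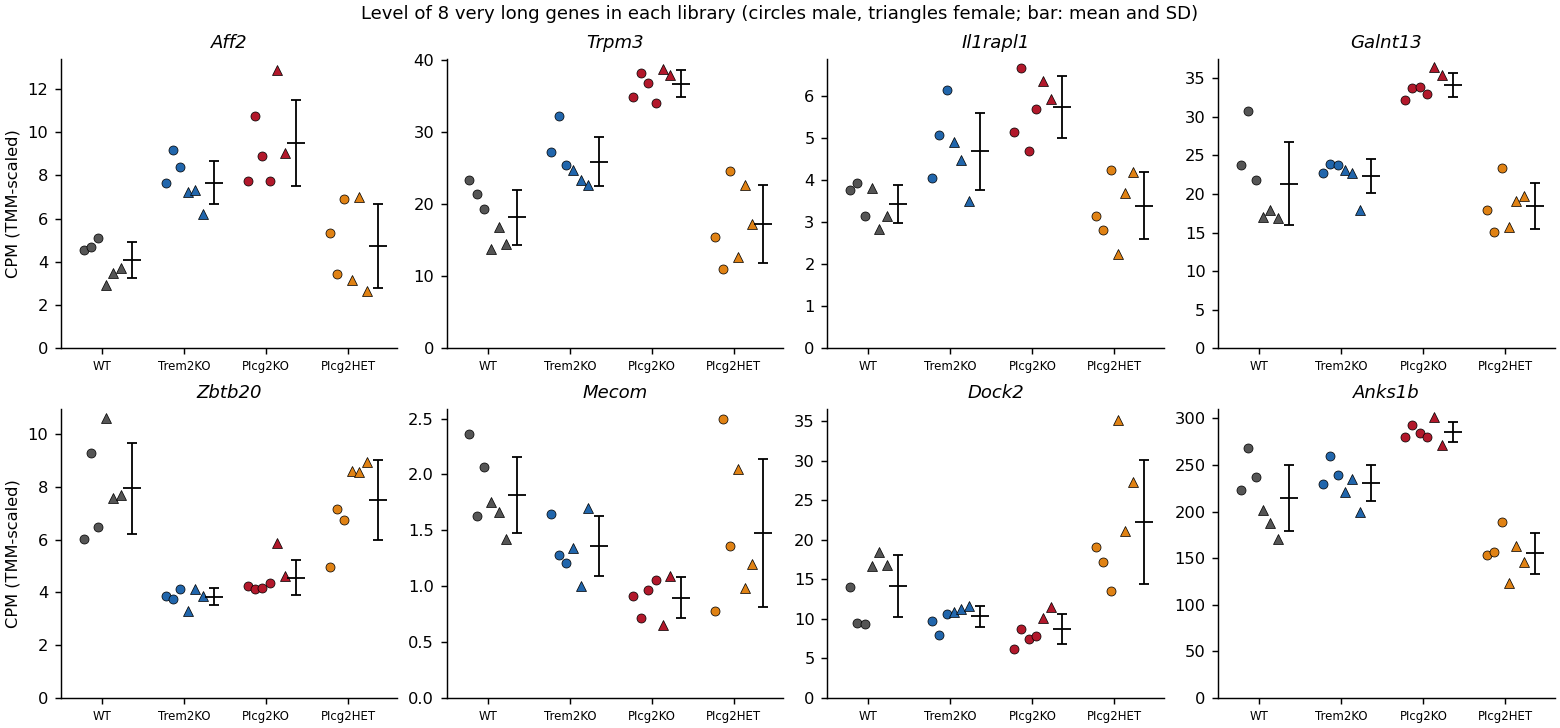
CPM (TMM-scaled, y axis from 0) of 8 very long genes in each library by genotype; circles are males, triangles females, and the bar gives mean and SD over 6 libraries. Aff2 and Trpm3 are higher in all Plcg2KO libraries than in any WT library, Zbtb20 is lower in all Trem2KO libraries than in any WT library, and Dock2 is highest in a Plcg2HET female at 35.2 CPM.

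With GC offsets, 42 very long genes were higher in Plcg2KO than in WT and 5 lower, against 8.4% and 9.3% of all tested genes. Of the 43 genes called without the offsets, 40 were called with them. The median log2 fold change was then 0.16. By role, no count of calls in either direction moved by more than 1. With offsets for GC content and exon length together, 37 were higher and 8 lower (9.08% and 10.5% of all tested genes), and the median fell to 0.08. Without offsets, the 58 genes of lowest GC content had a median of 0.23, the 57 in the middle 0.19 and the 58 of highest GC content 0.24. With GC offsets these medians were 0.10, 0.14 and 0.24, so that the genes of lowest GC content then had the smallest difference. Set beside 4263 other genes in the GC range of the middle 87 very long genes (42.7% to 49.1%), those 87 were called higher in 23.0% and the others in 6.69%, with medians of 0.19 and 0.06. With the offsets these shares were 24.1% and 8.7%, and the medians 0.14 and 0.00.

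The value rose step by step with span over all genes of at least 1 CPM. Median log2 fold changes for Plcg2KO against WT were -0.09 in 3558 genes under 10 kb, -0.03 from 10 to 30 kb, 0.06 from 30 to 100 kb, 0.13 from 100 to 200 kb, 0.17 in 637 genes from 200 to 500 kb, and 0.22 in the 174 very long genes. The share called higher rose over the same classes from 2.22% to 23.0%. With GC offsets the order held, with medians of -0.05, -0.03, 0.04, 0.09, 0.14 and 0.16. With offsets for GC content and exon length it did not hold at either end: the medians were -0.01, -0.01, 0.01, 0.04, 0.08 and 0.08, and the very long genes were level with those of 200 to 500 kb. Genes of 200 to 500 kb, the nearest class, had 16.6% called higher and 2.35% lower without offsets. Among the 174 genes themselves, span and log2 fold change had a Spearman correlation across genes of 0.05, and the 45 genes over 1 Mb had 8 calls, all higher (17.8%).

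**Figure D3:**
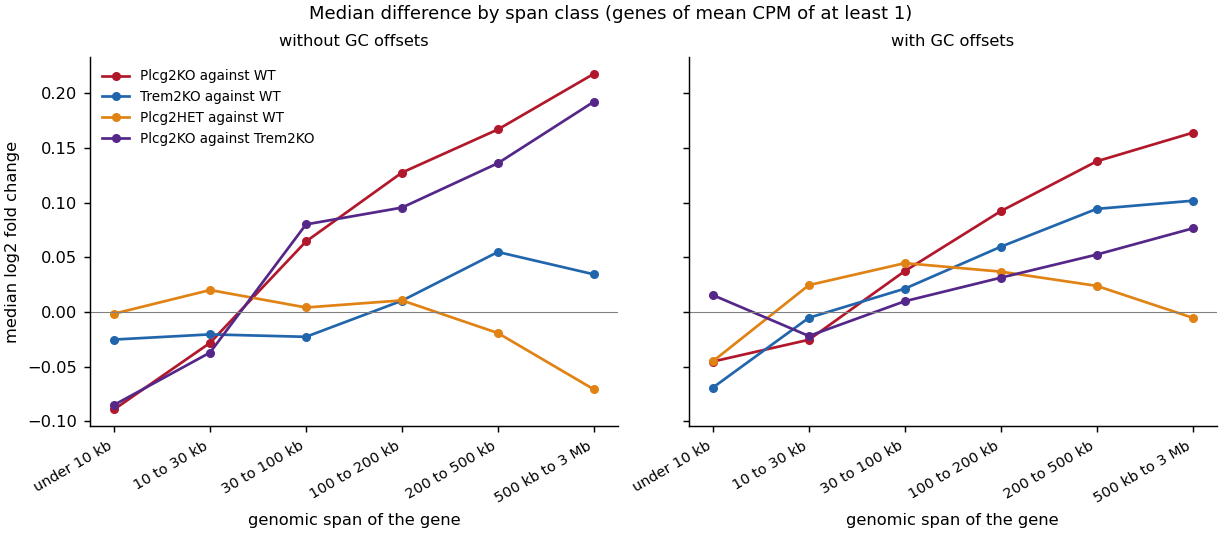
Median log2 fold change (y axis) in 6 classes of genomic span (x axis), for 4 comparisons, without GC offsets on the left and with them on the right; each point is the median over all genes of that class with a mean of at least 1 CPM. For Plcg2KO against WT the median rises from -0.09 in genes under 10 kb to 0.22 in the very long genes on the left, and from -0.05 to 0.16 on the right.

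The size of the difference was not alike in the sexes at face value. In females alone, 2 Plcg2KO against 3 WT mice, 29 very long genes were higher and 1 lower (3.14% and 2.96% of all tested genes) and the median log2 fold change was 0.46. In males alone, 4 against 3 mice, 3 were higher and 1 lower (0.366% and 1.89% of all tested genes) and the median was 0.07. The test of the difference between the sexes called 0 of the 174, and 0 of all 16316 genes (0%), with edgeR. At an unadjusted p under 0.05, 39 of the 174 passed, and 55 with GC offsets. No share of all tested genes stands beside these counts, so they cannot be read as particular to very long genes. Within WT, the 174 genes had a median log2 fold change of -0.27 in females against males, with 1 called higher and 0 lower (0.484% and 0.116% of all genes), and with GC offsets 1 higher and 10 lower (1.7% and 1.38%). Without Plcg2KO F1, the female with the highest median, 20 genes were called higher and 3 lower between Plcg2KO and WT. Without WT F1, or without WT F3, 24 were called higher and 3 lower. Shares of all tested genes in these fits are not given here, so the lower counts cannot be read as particular to very long genes. The median log2 fold change of Plcg2KO against WT was 0.18 to 0.27 with any 1 library left out.

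The second question is whether loss of Trem2 gave a like change. In Trem2KO against WT, 23 very long genes were higher and 8 lower (7.56% and 8.16% of all tested genes), with a median log2 fold change of 0.03 against -0.02 over all genes. Groups did not overlap in 15 higher genes (5.8% of tested genes) and in 3 lower genes (5.23%). With GC offsets the counts were 43 higher and 6 lower (9.1% and 9.48% of tested genes) and the median was 0.10. Of the 31 genes called without the offsets, 27 were called with them. The offsets raised the number of increases from 6 to 13 of 44 adhesion genes, from 2 to 6 of 18 upkeep genes, from 4 to 7 of 19 signalling genes and from 0 to 3 of 22 scaffold genes. With offsets for GC content and exon length, 38 were higher and 13 lower (8.97% and 11% of all tested genes), with a median of 0.04. Because this comparison and that of Plcg2KO use the same WT mice, their values are set side by side without a test of likeness.

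Slit3 measured 34.8, 37.0 and 43.0 CPM in Trem2KO, above all WT libraries (log2 fold change 0.70 ± 0.12, adjusted p = 0.00021), where Plcg2KO gave 0.65. Aff2 measured 6.23, 7.48 and 9.16 CPM in Trem2KO, also above all WT libraries (0.92 ± 0.19, adjusted p = 0.0020), where Plcg2KO gave 1.21. Thsd4 measured 6.53, 6.91 and 7.68 CPM in Trem2KO (0.68 ± 0.13, adjusted p = 0.00063), and Nbea 226, 238 and 272 CPM (0.52 ± 0.12, adjusted p = 0.0046). These 4 genes were higher than every WT library in all 6 Trem2KO mice.

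Receptors and channel partners were also among the increases. Alk, a receptor tyrosine kinase, measured 5.45, 8.35 and 9.11 CPM in WT, 10.5, 11.8 and 14.2 CPM in Trem2KO and 8.78, 9.04 and 10.9 CPM in Plcg2KO, so that Trem2KO alone was clear of WT (0.61 ± 0.12, adjusted p = 0.00083). Ptprn2 measured 357 to 481 CPM in WT and 525 to 555 CPM in Trem2KO (0.37 ± 0.07, adjusted p = 0.0012). Dpp6, an auxiliary subunit of A-type potassium channels, measured 258 to 386 CPM in WT and 395 to 438 CPM in Trem2KO (0.40 ± 0.10, adjusted p = 0.0058). Hs6st3, a heparan sulfate sulfotransferase, was called at 0.57 ± 0.16 (adjusted p = 0.016) but not with GC offsets (0.44, adjusted p = 0.16).

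The decreases were led by Zbtb20, at 3.29, 3.87 and 4.14 CPM in Trem2KO, below all WT libraries. Its log2 fold change was -1.03 ± 0.13 (adjusted p = 4.9e-06), and the call held in each sex alone, with GC offsets and with any 1 library left out. Ntm measured 258, 283 and 412 CPM in WT and 174, 210 and 225 CPM in Trem2KO, without overlap (-0.55 ± 0.12, adjusted p = 0.0028). Foxp1, a forkhead transcription factor of cortical neurons, fell by 0.48 ± 0.13 on the log2 scale (adjusted p = 0.014). Arhgap15, a Rac-inactivating protein of leukocytes with the lowest GC content among the 173 transcripts where it was known (35.2%), was called at -0.42 ± 0.11 (adjusted p = 0.011), and with GC offsets it gave -0.20 (adjusted p = 0.12).

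Dock2 was called at -0.42 ± 0.13 (adjusted p = 0.032) in Trem2KO, and 8 of 24 fits without 1 library, each lacking a WT or a Trem2KO mouse, lost that call. In this comparison 13 of 15 microglial markers were lower and the median of 12 endothelial markers was -0.06. Pericyte and fibroblast markers went the other way, with 5 of 14 higher, 0 lower and a median of 0.36, and their summed level was 278 to 327 CPM in Trem2KO against 202 to 265 CPM in WT, without overlap. Of 18 general neuronal markers 2 were higher and 3 lower (median -0.15). Their summed level was 18026 to 18940 CPM in Trem2KO (median 18501) and 15145 to 19256 CPM in WT (median 16854), with overlap. The part of these cells in the results was not tested.

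Among the very long genes, values followed GC content more closely in this comparison than in the first. Across the 173 with known GC content, the log2 fold change of Trem2KO against WT had a Spearman correlation of 0.40 with it. That of Plcg2KO against WT gave -0.11. Over all tested genes the correlations were 0.36 and -0.32, which are alike in size. Among the 58 very long genes of lowest GC content 1 was higher and 4 lower in Trem2KO, and among the 58 of highest GC content 17 were higher and 2 lower. With the offsets, these became 12 and 3, and 16 and 2. Genes gained with the offsets included Galnt13 (0.28, adjusted p = 0.021), Robo2 (0.33, adjusted p = 0.017), Tenm1 (0.48, adjusted p = 0.0061) and Cntnap2 (0.33, adjusted p = 0.0030). By span, the Trem2KO medians without offsets were -0.03 under 10 kb, 0.05 from 200 to 500 kb and 0.03 in the very long genes. With offsets they were -0.07, 0.09 and 0.10.

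**Figure D4:**
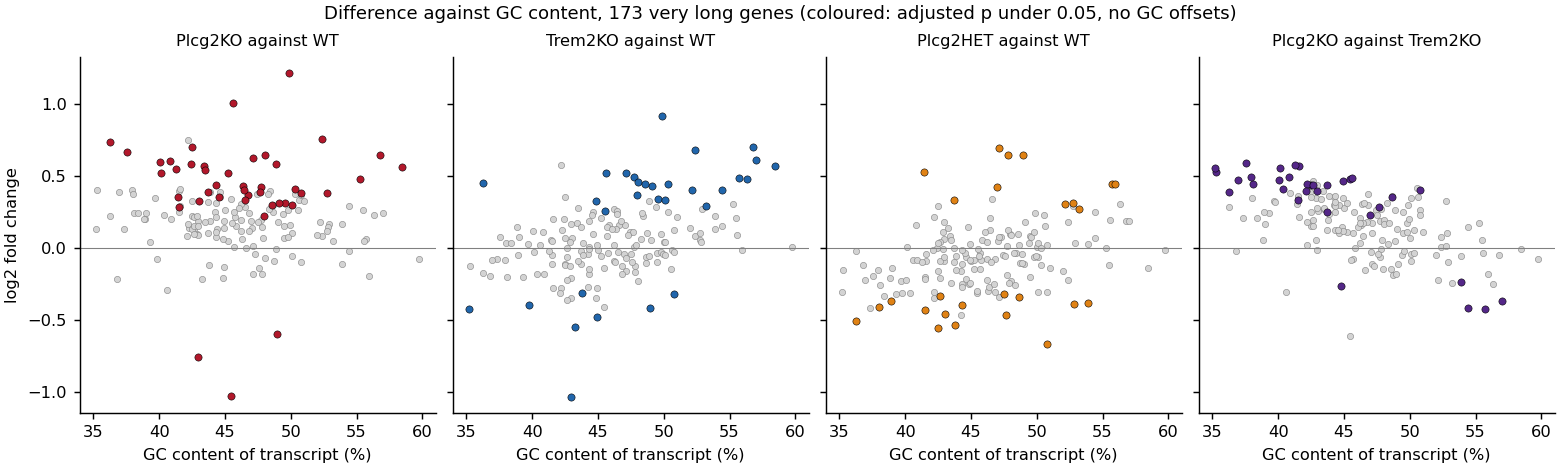
Log2 fold change (y axis) against GC content of the transcript in percent (x axis) for 173 very long genes in 4 comparisons, without GC offsets; coloured points have an adjusted p under 0.05. The points rise with GC content for Trem2KO against WT (Spearman 0.40 across genes) and fall for Plcg2KO against Trem2KO (-0.56), with little slope for Plcg2KO against WT (-0.11).

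The third comparison sets the knockouts against each other. In Plcg2KO against Trem2KO, 28 very long genes were higher and 5 lower (7.63% and 8.82% of all tested genes), with a median log2 fold change of 0.19 against 0.00 over all genes. Groups did not overlap in 41 higher genes (9.6% of tested genes) and in 4 lower genes (9.25%). With GC offsets, 1 was higher and 3 lower (2.16% and 2.57% of tested genes) and the median was 0.08. With offsets for GC content and exon length, 7 were higher and 5 lower (3.5% and 2.87%) and the median was 0.06. Of the 33 genes called without offsets, 2 were called with them, namely Rbfox1 and Nell1. Across the 173 genes the log2 fold change had a Spearman correlation of -0.56 with GC content, and 21 of the 28 increases were among the 58 genes of lowest GC content. The number of calls also moved with single libraries. It was 7 without Trem2KO M1, 8 without Trem2KO F3, 8 without Plcg2KO F1 and 55 without Plcg2HET M3. Plcg2HET M3 is in neither group and enters through what all libraries share in the fit, such as the spread and the sex term. In the same fits 4.69%, 6.47%, 6.96% and 23.9% of all tested genes were called. Of the markers, 6 of 12 endothelial ones were lower and 0 higher (median -0.48), 3 of 14 pericyte and fibroblast ones lower and 0 higher (median -0.35), 3 of 14 oligodendrocyte ones higher and 4 lower, 4 of 18 general neuronal ones higher and 2 lower, and 1 of 15 microglial ones higher and 1 lower. The part of these cells in the result was not tested.

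Without offsets, RNA-binding and transcription factors were the role group with the highest share of increases here, 6 of 17, with 0 lower. With GC offsets 1 of the 17 was higher, and 0 in every other role group. Rbfox1, a neuronal splicing regulator, measured 239, 295 and 357 CPM in Trem2KO and 391, 401 and 461 CPM in Plcg2KO, without overlap (0.46 ± 0.12, adjusted p = 0.014). With GC offsets it gave 0.29 (adjusted p = 0.0496), and the call was lost without Trem2KO M1. Celf2, another RNA-binding splicing factor, was called at 0.39 ± 0.13 (adjusted p = 0.043) and gave 0.14 (adjusted p = 0.34) with offsets. Rbms3, an RNA-binding protein, was called at 0.57 ± 0.18 (adjusted p = 0.032) and gave 0.30 (adjusted p = 0.12). Of 24 fits without 1 library, 10 lost the call of Celf2 and 5 that of Rbms3.

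Galnt13 measured 17.9, 22.9 and 23.8 CPM in Trem2KO against 32.1 to 36.4 CPM in Plcg2KO, far apart (0.59 ± 0.12, adjusted p = 0.0051). With GC offsets the difference was 0.22 (adjusted p = 0.12). Its transcript has a GC content of 37.5%. Arhgap15 gave 0.55 ± 0.11 (adjusted p = 0.0054) without and 0.15 (adjusted p = 0.35) with offsets. Trpm3 gave 0.49 ± 0.15 (adjusted p = 0.031) without and 0.34 (adjusted p = 0.080) with offsets, and 7 of 24 fits without 1 library lost its call.

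The 5 decreases were transcripts with a GC content of 44.8% to 57.0%. Astn2, a protein of neuronal migration, measured 75.9 to 87.3 CPM in Trem2KO and 56.9 to 64.6 CPM in Plcg2KO, without overlap (-0.42 ± 0.13, adjusted p = 0.028). Kirrel3, an adhesion molecule of the immunoglobulin family, measured 62.7 to 76.1 and 45.4 to 55.1 CPM, also without overlap (-0.42 ± 0.12, adjusted p = 0.023). Alk gave -0.37 ± 0.12 (adjusted p = 0.035), Nell1, a secreted protein, -0.26 ± 0.09 (adjusted p = 0.046) and Large, a glycosyltransferase of dystroglycan, -0.24 ± 0.08 (adjusted p = 0.046). With GC offsets Nell1 gave -0.45 (adjusted p = 0.034), and the other 4 were not called. Of the 24 fits that lacked 1 library, without offsets, 14 lost the call of Large, 13 that of Nell1, 9 that of Alk, 5 that of Astn2 and 2 that of Kirrel3.

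The fourth comparison concerns the heterozygotes. In Plcg2HET against WT, 11 very long genes were higher and 15 lower (10.9% and 7.13% of all tested genes), and the median log2 fold change was -0.07. The groups did not overlap in 3 higher genes (1.92% of tested genes) and in 4 lower genes (1.64%). With GC offsets 13 were higher and 21 lower (11.5% and 8.46% of tested genes), the median was -0.01, and 24 of the 26 genes were called again. The 6 Plcg2HET libraries were unlike each other: the median deviation of the 174 genes was 0.152 in M3 and 0.132 in F2, and -0.488 to -0.198 in M1, M2, F1 and F3. M3 and F2 are also the 2 Plcg2HET libraries whose trend with GC content was negative. Without M3, 12 genes were called higher and 38 lower (15.3% and 11.3% of tested genes), and without F2, 12 and 35 (14.6% and 9.78%). Offsets for GC content and exon length gave 10 higher and 36 lower (11.6% and 11%), with a median of -0.06.

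The number of calls also changed without the libraries rich in Rn45s, a ribosomal RNA precursor. Rn45s took 29.0% of the counts of Plcg2HET F3, which had a TMM scaling factor of 0.716, as well as 9.59% in WT F1 and 5.29% in Plcg2HET F1. Without these 3 libraries 5 very long genes were higher and 5 lower (2.92% and 1.98% of tested genes). A fit of Plcg2HET and WT alone gave 4 higher and 4 lower (3.26% and 1.42%). Of the genes described next, Pcdh11x, Cntnap5c, Astn2 and 1700112E06Rik lost their calls without the 3 libraries.

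The decreases comprised 7 adhesion genes, 3 scaffold genes, 2 channel genes and 3 on no list. With GC offsets these were 9, 3, 3 and 4, and axon guidance and signalling genes had 1 each. Fam155a, a subunit of the NALCN sodium leak channel, measured 64.9, 82.3 and 96.6 CPM in WT and 42.5, 51.4 and 60.8 CPM in Plcg2HET, without overlap (-0.67 ± 0.11, adjusted p = 0.00036). Ptprd measured 213, 255 and 305 CPM in WT and 144, 182 and 187 CPM in Plcg2HET, without overlap (-0.53 ± 0.09, adjusted p = 0.00049). Lrrc4c, a postsynaptic netrin-G ligand, measured 120 to 162 and 78.5 to 114 CPM, also without overlap (-0.56 ± 0.11, adjusted p = 0.0014). Anks1b measured 123, 155 and 189 CPM in Plcg2HET, where WT began at 171 CPM (-0.46 ± 0.09, adjusted p = 0.0012). These 4 kept their calls with GC offsets and with any 1 library left out. Fam155a and Ptprd were also called lower in Trem2KO against WT, but 11 and 4 of 24 fits without 1 library lost those calls. With GC offsets the call of Ptprd in Trem2KO was lost as well. Pcdh11x, a protocadherin of the X chromosome, was called at -0.51 ± 0.12 (adjusted p = 0.0046), and with GC offsets at -0.33.

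Of the increases, Cntnap5c, a contactin-associated protein, measured 4.0, 4.68 and 5.39 CPM in WT and 5.27, 7.75 and 10.1 CPM in Plcg2HET, overlapping slightly (0.69 ± 0.15, adjusted p = 0.0025). Its relative Cntnap5a measured 14.8 to 19.97 CPM in WT and 18.8 to 33.4 CPM in Plcg2HET (0.52 ± 0.11, adjusted p = 0.0024). Dock2 measured 13.6, 20.1 and 35.2 CPM in Plcg2HET (0.64 ± 0.13, adjusted p = 0.0018), overlapping WT, so that it was higher in the heterozygotes and lower in both knockouts. Of the microglial markers 2 of 15 were higher and 1 lower in Plcg2HET. Oligodendrocyte precursor markers gave 4 of 10 higher and 1 lower (median 0.28), pericyte and fibroblast markers 3 of 14 higher and 1 lower (median 0.41), oligodendrocyte markers 1 of 14 higher and 4 lower, and general neuronal markers 5 of 18 higher and 3 lower. Summed pericyte and fibroblast levels spread from 183 to 418 CPM in Plcg2HET. The part of these cells in the results was not tested. Astn2 rose by 0.44 ± 0.13 (adjusted p = 0.016), a call lost without WT F1, Plcg2HET M2 or Plcg2HET F1. 1700112E06Rik, at 0.489 to 2.02 CPM in WT and 1.02 to 2.12 CPM in Plcg2HET, was called at 0.64 ± 0.21 (adjusted p = 0.031), a call that 6 of 24 fits without 1 library lost.

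**Figure D5:**
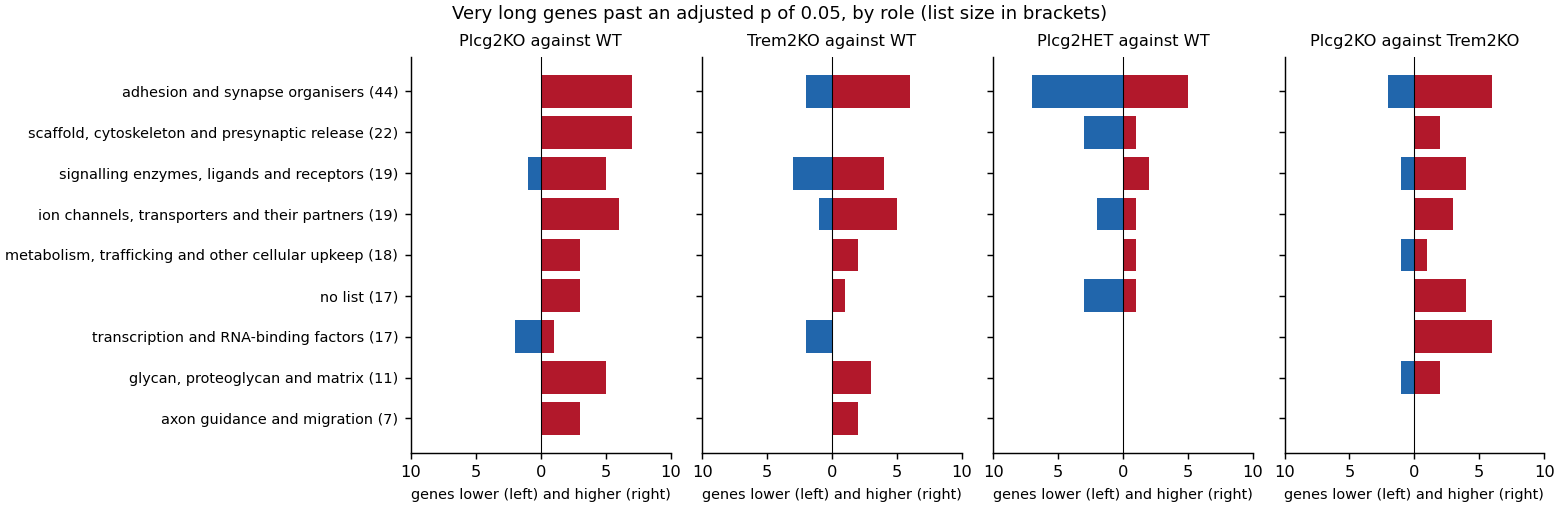
Number of very long genes called lower (left of 0) and higher (right of 0) in each of 4 comparisons at an adjusted p under 0.05 without GC offsets, by role; the size of each role group is in brackets. Adhesion genes give 7 higher and 0 lower for Plcg2KO against WT, and 5 higher and 7 lower for Plcg2HET against WT.

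Over all 4 genotypes together, 104 of the 174 genes differed (59.8%), against 45.7% of all tested genes. With GC offsets the count was 105 (60.3%), against 43.7%, and 97 genes were in both. The smallest adjusted p-values belonged to Dock2 (2.6e-07), Anks1b (1.0e-06) and Zbtb20 (1.1e-06). In order of mean level, Dock2 ran from Plcg2KO through Trem2KO and WT to Plcg2HET, Anks1b from Plcg2HET through WT and Trem2KO to Plcg2KO, and Zbtb20 from Trem2KO through Plcg2KO and Plcg2HET to WT. For Anks1b, WT and Trem2KO did not differ at an adjusted p under 0.05 (0.11 ± 0.09, adjusted p = 0.44). For Zbtb20, Plcg2HET and WT did not (-0.09 ± 0.13, adjusted p = 0.67), nor did Plcg2KO and Trem2KO (0.27 ± 0.13, adjusted p = 0.13). In none of the 4 pairwise comparisons were 86 of the 174 genes called. Among these were the abundant Syt1 and Syne1, the dystrophin gene Dmd, which measured 28.7 to 48.6 CPM in WT and 40.4 to 48.3 CPM in Plcg2KO, and Atrnl1, an attractin-like protein, at 118 to 144 CPM in WT. Kalrn, a guanine nucleotide exchange factor of dendritic spines and abundant at 461 to 612 CPM in WT, was called in Trem2KO alone (0.25 ± 0.08, adjusted p = 0.032), a call that 6 of 24 fits without 1 library lost. Fgf12, a partner of sodium channels, was called between the knockouts alone (0.43 ± 0.15, adjusted p = 0.046), and not with GC offsets (0.22, adjusted p = 0.15). That call was also lost in 16 of 24 fits without 1 library, with expected counts and without the filter on low counts.

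Genes that encode the machinery long genes are known to need were read from a list of 36 that includes topoisomerases, elongation factors and RNA polymerase II. In Plcg2KO against WT, 8 were higher and 1 lower, in Trem2KO 3 and 2, and in Plcg2HET 11 and 1. The shares higher were 22.2%, 8.33% and 30.6%, against 5.44%, 7.56% and 10.9% of all tested genes, so that Trem2KO lay near the share of all genes. With GC offsets these counts were 11 and 1, 5 and 2, and 13 and 1, where 8.4%, 9.1% and 11.5% of all genes were higher. Polr2a, the largest subunit of RNA polymerase II, was higher in all 3, with log2 fold changes of 0.59 (adjusted p = 0.026) in Plcg2KO, 0.83 (adjusted p = 0.0023) in Trem2KO and 0.97 (adjusted p = 0.00085) in Plcg2HET. Top2b, a topoisomerase of neurons, gave 0.54 (adjusted p = 0.033), 0.13 (adjusted p = 0.65) and -0.14 (adjusted p = 0.60) in the same order. Top1 gave 0.16 (adjusted p = 0.35), -0.38 (adjusted p = 0.018) and 0.17 (adjusted p = 0.31). Setd2, a histone methyltransferase that travels with the polymerase, gave 0.50 (adjusted p = 0.0069), 0.28 (adjusted p = 0.13) and -0.02 (adjusted p = 0.93).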

How the data were processed

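RNA of cortex from 24 mice was analysed as deposited. Raw read counts for 24421 genes, beside the coordinates and summed length of their exons, stand in a table deposited by the authors, per the file headers. STAR 2.7.10a, featureCounts 2.0.3 and mm10 are named in the submitters' processing notes. A second table, deposited by the authors per the file headers, gives expected counts, TPM, FPKM and an effective length. Its expected counts, rounded, served 1 alternative, and the deposited TPM and FPKM values and effective lengths were used in no test. The sources used here name neither the tool of the expected counts nor the strand setting of the counting. Overlapping genes on opposite strands therefore cannot be told apart.

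Genes were filtered with filterByExpr (minimum count 10), which left 16316, scaled by TMM and fitted with edgeR 4.0.16's quasi-likelihood test in R 4.3.3. All 24 libraries entered 1 fit with a mean per genotype and a sex term. P-values were adjusted by Benjamini-Hochberg over all tested genes, and calls have an adjusted p under 0.05. CPM are TMM-scaled. GC content was that of the longest GENCODE M21 transcript of a symbol, or of its RefSeq symbol. GC offsets were lowess curves of each library's deviations on GC content (span 0.3). The sex difference was tested in a fit with a mean per genotype and sex, chosen after seeing the data. The steps were tested on simulated data.

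The members and all lists were chosen with earlier results of these data known. The genes named are the 3 longest and 6 most abundant, the 5 largest called increases and decreases in each comparison, the 2 most abundant in each role, the 3 smallest p over 4 genotypes and the neighbours of the limits; 1 gene under this rule is not reported here. Genes named beyond that rule (Plcg2, Trem2, the machinery genes, Rnaset2b, Gm1604b, Adarb2, Lhfpl3, Frmpd4 and Diap2) were chosen after their values were seen. Each mouse gave 1 library. Alternatives were other scaling, filters, sex terms, a replicate block, each sex alone, the 2 groups alone, DESeq2 1.42.0, each library left out, GC and exon length offsets, expected counts, no libraries rich in Rn45s (a ribosomal RNA precursor), and stricter limits on the genes.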

Additional observations from a re-analysis of the deposited data

Results flagged for a closer look

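In 184 groups of 6 libraries, 46 sets of values in each of 4 genotypes, 15 held a highest or lowest library set apart from the other 5 by more than 0.625 of the group's range. Chance gives such a gap in about 1 in 20 groups.

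Plcg2KO F1 was the highest of its genotype for 6 genes. It measured 140 CPM for Cntnap2 (others 118 to 126 CPM), 89.0 CPM for Kcnip4 (55.1 to 62.5), 365 CPM for Ntm (214 to 260), 461 CPM for Rbfox1 (391 to 408), 2425 CPM for Syt1 (1933 to 2011) and 5.89 CPM for Zbtb20 (4.14 to 4.62). Its median deviation over the 174 very long genes, 0.305, was set apart as well (others 0.162 to 0.205). Without this library Kcnip4 was no longer called against WT or against Trem2KO (0.36 and 0.39 on the log2 scale), while Zbtb20 stayed called lower than in WT.

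WT M2 was the highest WT library for Arhgap15 (14.6 CPM, others 10.6 to 11.6), Fgf12 (283 CPM, others 154 to 198) and Rbms3 (21.8 CPM, others 10.3 to 14.5). Trem2KO F3 was the lowest of its genotype for Galnt13 (17.9 CPM, others 22.7 to 23.8) and Kalrn (593 CPM, others 639 to 659). Trem2KO M1 was the highest for Large (184 CPM, others 147 to 160) and Ptprn2 (555 CPM, others 525 to 533). Plcg2KO F2 was the highest for 1700112E06Rik (1.22 CPM, others 0.677 to 0.874).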

How the results depend on the processing

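Shares of the 174 genes called were 24.7% for Plcg2KO against WT, 17.8% for Trem2KO against WT, 14.9% for Plcg2HET against WT, 19.0% for Plcg2KO against Trem2KO and 59.8% over the 4 genotypes, where all tested genes gave 13.1%, 15.7%, 18%, 16.5% and 45.7%. Other size factors, filters on low counts, no sex term, expected counts and stricter expression limits moved none of these by over 1.5 times. In the same order, males alone gave 2.3%, 0.575%, 0%, 0% and 8.05%, against 2.25%, 0.44%, 0.0305%, 0.0672% and 4.59% of all tested genes, with 24, 24, 46, 11 and 62 very long genes at an unadjusted p under 0.05. Females alone gave 9.77%, 0.575%, 0% and 23.0% for the last 4, against 5.81%, 2.53%, 0.0362% and 12.6% of all, with 39, 25, 65 and 104 genes at an unadjusted p under 0.05, and medians of 0.46 for Plcg2KO against WT and 0.36 for Plcg2KO against Trem2KO. These fits used fewer mice. Their counts at an unadjusted p have no share of all tested genes beside them. Such counts cannot be read as particular to very long genes. The median of Plcg2HET against WT was -0.07 with both sexes, 0.09 in females alone and -0.20 in males alone. Of the 174 genes 111 were above 0 in females and 139 below 0 in males. The median of Trem2KO against WT was 0.03 with both sexes, 0.12 in females alone and -0.02 in males alone. The test of the difference between the sexes called 0 of the 174 in either comparison, and 0 of all 16316 genes. Fits of only the groups compared gave 40.2%, 33.9%, 4.6% and 54.6%, against 22.3%, 29.9%, 4.68% and 42.1% of all. Counted in either direction, Trem2KO and Plcg2HET against WT were near the share of all genes. By direction Trem2KO was not, with 26.4% higher and 7.47% lower, against 15.8% and 14.1% of all. Plcg2HET gave 2.3% higher and 2.3% lower, against 3.26% and 1.42% of all. GC offsets gave 28.2% for Trem2KO against WT (18.6% of all) and 2.3% for Plcg2KO against Trem2KO (4.73%). GC and exon length offsets gave 29.3% for Trem2KO against WT (19.9%), 26.4% for Plcg2HET against WT (22.6%) and 6.9% for Plcg2KO against Trem2KO (6.37%). DESeq2 gave 28.7% for Plcg2KO against Trem2KO (22%), a limit of 1 Mb 6.67% for Trem2KO against WT, and a fit without the libraries rich in Rn45s 5.75% for Plcg2HET against WT (4.89%). Where no value above shows it, the cause was not tested.

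Leaving out each library gave 13.2% to 32.2%, 12.6% to 20.1%, 9.2% to 28.7%, 4.02% to 31.6% and 52.3% to 76.4%, and medians of 0.18 to 0.27, 0.02 to 0.07, -0.17 to -0.01 and 0.16 to 0.23. Calls over all tested genes moved too, as given above for Plcg2KO against Trem2KO and Plcg2HET against WT.

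With the replicate code as a block the shares were 18.4%, 16.1%, 12.6%, 4.6% and 55.2%, against 9.7%, 13.5%, 14.8%, 6.58% and 37.3% of all. The codes were not taken to pair the mice, since not every pair had a correlation of deviations over 0.1: of 33 pairs with the same code 20 did (range -0.19 to 0.376). The median was 0.128 for the same code and -0.016 for different codes, and 8 of 23 libraries were closest to one with their own code. These deviations were from genotype means with sex left in. Pairs with the same code always share a sex, so code and sex cannot be told apart in these values. The block with GC offsets, added after the data were seen, gave 27.0% for Trem2KO against WT (16.9% of all) and 0% for Plcg2KO against Trem2KO (1.39%).

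Of 68 calls of named genes, GC offsets kept 49 and DESeq2 68, and 37 held with every library left out in turn. Only Pcdh11x in Plcg2KO against Trem2KO changed sign, from 0.39 to -0.0038 with GC offsets, -0.044 with GC and exon length offsets and -0.037 with the replicate block and GC offsets.

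Depth was 36.3 M counts or more, and genes near 1 CPM, among them Mecom and 1700112E06Rik, have few counts. Intron reads were not separated, and rises of whole transcripts and of single isoforms cannot be told apart in gene counts.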

Other observations

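The 10 very long genes on the X chromosome were called higher in Plcg2KO against WT in 5 cases (50%), namely Aff2, Il1rapl1, Tenm1, Frmpd4 and Diap2, and lower in 0. On the other chromosomes 35 of 164 were higher and 3 lower. Of all 577 tested genes on X, 44 were higher (7.63%) and 33 lower (5.72%). With GC offsets the same counts were 5 of 10, 37 of 164 and 59 of 577. Trem2KO against WT gave 2 of 10 higher on X, where 21 of the other 164 very long genes (12.8%) and 6.41% of all tested genes on X were higher. With GC offsets it gave 4 of 10, against 39 of 164 (23.8%) and 9.88%. This grouping was made after the values were seen, and no test was made of it.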
